A study of Mus musculus with 6 samples.

Results

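The ErbB family is described here by its transcripts in wild-type (wt) mouse embryonic pancreata at 13.5 and 15.5 days post coitum (dpc). The members are the 4 ErbB receptor genes (*Egfr*, *Erbb2*, *Erbb3* and *Erbb4*) and 6 genes of EGF-family ligands (*Egf*, *Tgfa*, *Btc*, *Hbegf*, *Areg* and *Nrg1*). They were chosen by name, and all 10 were found among the 37224 genes of the count table by their Ensembl identifiers. All samples were whole pancreata of the C57/Bl6J strain with no mutation and no treatment. Each stage had 3 independent samples, and each sample was pooled from up to 3 embryos. Both stages fall in the secondary transition, the period in which acinar and endocrine cells differentiate from pancreas progenitors. Other stages, genotypes and cultures were not analysed here.

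ErbB receptors are receptor tyrosine kinases that act as dimers. Most of their ligands are made as membrane-anchored precursors, which metalloproteases cut to release the soluble factor. Egfr binds Egf, Tgfa and Areg, both Egfr and Erbb4 bind Btc and Hbegf, and Erbb3 and Erbb4 bind neuregulins. Erbb2 has no known ligand of its own and serves as the preferred partner of the others, whereas Erbb3 has a weak kinase and signals mainly through its partner. Downstream of the dimers lie the MAP kinase and PI3 kinase pathways. In the embryonic pancreas the family is known for its part in epithelial growth and in endocrine differentiation.

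Strand-specific poly(A) libraries were sequenced from a single end, and the deposited values are raw counts of uniquely aligned reads per gene. Total counts per sample ranged from 10546028 to 16389237. Values for 1 gene across samples are given as normalised counts, that is counts scaled by the effective library size (TMM factors of 0.847 to 1.08). Levels of different genes are set side by side as FPKM, which further divides by the exon length of the gene. Differences between stages were tested with edgeR's quasi-likelihood test over 15578 genes, and adjusted p-values are Benjamini-Hochberg values over all of them. A gene was called at an adjusted p at or below 0.05.

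Of the 10 members, 8 passed the filter on low counts, and *Erbb4* and *Areg* did not. *Egf* rose 3.09-fold from 13.5 to 15.5 dpc, and *Erbb2* fell to 67.1% of its earlier level. The other 6 members tested were not called. The 2 calls are 25% of the members tested, beside 22.3% of all genes tested. Of all genes tested, 11.6% were called higher and 10.7% called lower at 15.5 dpc, so the number of members called was near the background. The share of called genes that rose was 52.1% with TMM factors and 27.7% when counts were scaled by library size alone, a scaling that shifted the median over all genes tested from -0.01 to -0.22 (log2). *Egf* and *Erbb2* were called in the same directions under both scalings. The ranges of both stages were apart in 3 of the 8 members tested (*Erbb2*, *Egf* and *Nrg1*), which is 37.5%, beside 46.4% of all genes tested.

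The study's own thresholds are stricter on size. They ask for a fold below 0.6 or above 1.6, an adjusted p of at most 0.1 and a level over 100 normalised counts at 1 stage or both. Under them 1 member, *Egf*, passed, whereas 10.4% of the protein-coding genes tested did. *Erbb2* missed the limit on fold. It met all of these thresholds when counts were scaled by library size alone.

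**Figure D1:**
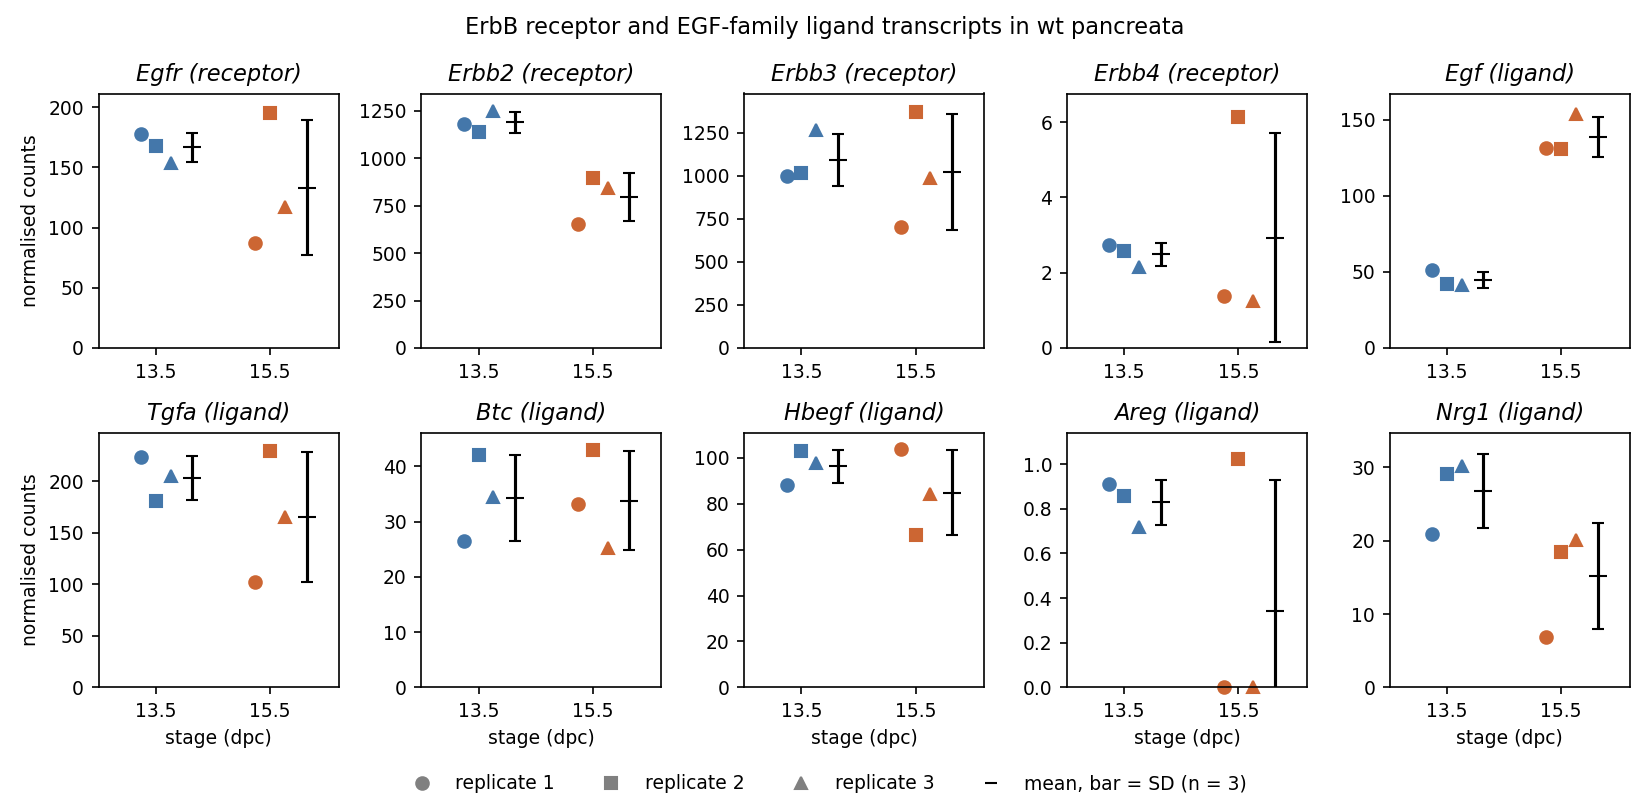
Normalised counts (vertical axes, each from 0) of the 10 members in each sample by stage in dpc, with the mean and SD of the 3 samples per stage. The 15.5 dpc samples of *Egf* (131 to 154) all sit above the 13.5 dpc samples (41.7 to 51.0), and those of *Erbb2* (652 to 893) all sit below (1136 to 1246).

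Among the receptors, *Erbb2* (ENSMUSG00000062312; mm10 chr11:98412470-98437716, plus strand) encodes the partner receptor without a known ligand. At 13.5 dpc it had 1179, 1136 and 1246 normalised counts in replicates 1, 2 and 3. At 15.5 dpc it had 652, 893 and 844. All 15.5 dpc samples were below all 13.5 dpc samples, and the lowest was 15.5 dpc replicate 1. The mean went from 1187 ± 55.6 (SD, n = 3) to 796 ± 127 (SD, n = 3), a log2 fold change of -0.58 (SE 0.13, edgeR adjusted p = 0.0211). Over 15 alternative analyses the log2 fold change stayed between -0.78 and -0.45, and the edgeR or DESeq2 adjusted p ranged from 0.0027 to 0.0939. The call was lost when any 1 of the 13.5 dpc samples was left out (log2 fold changes of -0.58, -0.61 and -0.54 without replicates 1, 2 and 3), and without 15.5 dpc replicate 3 (-0.62). In those 4 fits between 7.83% and 9.05% of all genes were called.

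*Erbb3* (ENSMUSG00000018166; chr10:128567523-128589652, minus strand) encodes the neuregulin receptor with a weak kinase. It had 997, 1015 and 1263 normalised counts at 13.5 dpc and 700, 1372 and 988 at 15.5 dpc. The 15.5 dpc samples lay on both sides of the earlier ones, and replicate 2 was 1.96 times replicate 1. The means were 1092 ± 149 and 1020 ± 337 (SD, n = 3 each), with a log2 fold change of -0.10 (SE 0.23, edgeR adjusted p = 0.782). The limits of this value at 2 standard errors were -0.56 and 0.37, so changes of that size in either direction were not resolved. Its direction also turned in some alternative analyses, from -0.36 to 0.12 when single samples were left out.

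*Egfr* (ENSMUSG00000020122; chr11:16752203-16918158, plus strand) encodes the receptor for Egf and Tgfa. It was measured at 178, 168 and 154 normalised counts at 13.5 dpc. At 15.5 dpc the values were 87.2, 195 and 117. Replicate 2 of 15.5 dpc was the highest of all 6 samples and replicate 1 the lowest, so the stages overlapped. The log2 fold change was -0.30 (SE 0.27, edgeR adjusted p = 0.426), with limits of -0.85 and 0.24 at 2 standard errors. Without 15.5 dpc replicate 2 it was -0.68 with an edgeR adjusted p of 0.0106, in a fit that called 48% of all genes. The other 14 alternatives did not call *Egfr*, and the adjusted p over all 15 reached 0.858.

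*Erbb4* (ENSMUSG00000062209; chr1:68032186-69108059, minus strand), which encodes a neuregulin and Btc receptor, had raw counts of 3, 3 and 3 at 13.5 dpc and 1, 6 and 1 at 15.5 dpc. Thus 5 of 6 values were at or below 3 counts, the level taken here as the limit of detection. No fold is given. At this depth its transcript was at the edge of detection, which is not absence.

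Set side by side per length, *Erbb2* and *Erbb3* held nearly all of the receptor transcript. At 13.5 dpc the levels were 18.0 ± 0.844 FPKM for *Erbb2*, 14.4 ± 1.95 for *Erbb3*, 1.16 ± 0.0842 for *Egfr* and 0.0159 ± 0.0019 for *Erbb4* (SD, n = 3 each). At 15.5 dpc they were 12.1 ± 1.93, 13.4 ± 4.43, 0.931 ± 0.390 and 0.0187 ± 0.0178 FPKM in the same order of genes. *Erbb2* was the higher of the leading pair in each 13.5 dpc sample, and its level divided by that of *Erbb3* was 1.37, 1.29 and 1.14. At 15.5 dpc this ratio was 1.07, 0.751 and 0.986, so the order of the pair differed between samples and did not exceed their spread. *Egfr* was below both in all 6 samples. *Erbb2* made up 53.8% ± 1.94 of the summed receptor FPKM at 13.5 dpc and 46.4% ± 4.77 at 15.5 dpc, and *Erbb3* made up 42.7% ± 2.43 and then 50.1% ± 4.14. *Egfr* made up 3.49% ± 0.489 and 3.43% ± 0.609. These shares are descriptions and were not tested.

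**Figure D2:**
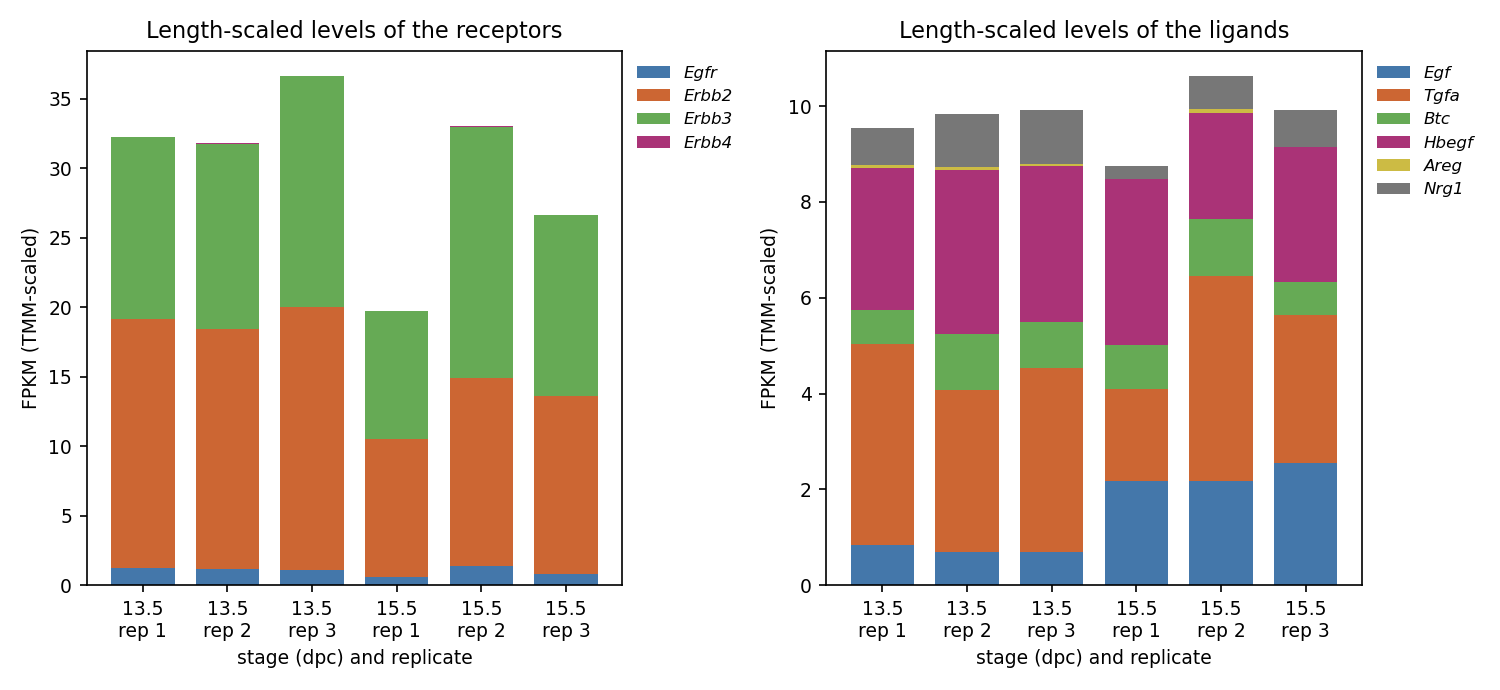
FPKM (TMM-scaled, vertical axes from 0) of the 4 receptors (left) and the 6 ligands (right) stacked for each sample. *Erbb2* and *Erbb3* fill the receptor bars, which sum to 33.6 ± 2.66 FPKM at 13.5 dpc and 26.5 ± 6.64 at 15.5 dpc, whereas the ligand bars sum to 9.77 ± 0.195 and 9.76 ± 0.951 with a wider *Egf* segment at 15.5 dpc.

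Among the ligands, *Egf* (ENSMUSG00000028017; chr3:129677575-129755322, minus strand) encodes the founding member of the family. It had 51.0, 42.0 and 41.7 normalised counts at 13.5 dpc and 131, 131 and 154 at 15.5 dpc. Every 15.5 dpc sample was above every 13.5 dpc sample, and the spread within each stage was no wider than counting alone gives (chi-square per degree of freedom of 0.731 and 0.99). The means were 44.9 ± 5.31 and 139 ± 13 (SD, n = 3 each), a log2 fold change of 1.63 (SE 0.15, edgeR adjusted p = 0.000976). *Egf* was called in all 15 alternatives, with log2 fold changes of 1.42 to 1.73 and adjusted p-values of 4.66e-12 to 0.0116. Its FPKM went from 0.747 ± 0.0883 to 2.31 ± 0.216, which moved it from percentile 10.2 to percentile 25.3 of the FPKM of all genes tested. *Egf* thus remained a low transcript in the whole organ at the later stage.

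*Tgfa* (ENSMUSG00000029999; chr6:86195251-86275449, plus strand), which encodes another Egfr ligand, had 223, 181 and 205 normalised counts at 13.5 dpc. At 15.5 dpc it had 102, 229 and 165. The stages overlapped, with 15.5 dpc replicate 2 the highest of all samples and replicate 1 the lowest, as for *Egfr*. The log2 fold change was -0.28 (SE 0.26, edgeR adjusted p = 0.447). It was -0.58 without 15.5 dpc replicate 2 (edgeR adjusted p = 0.0419), in a fit that called 48% of all genes. Over all 15 alternatives the adjusted p ranged from 0.0419 to 0.902.

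*Hbegf* (ENSMUSG00000024486; chr18:36504929-36515805, minus strand) encodes the heparin-binding ligand of Egfr and Erbb4. It had 88.4, 103 and 97.7 normalised counts at 13.5 dpc and 104, 66.5 and 84.4 at 15.5 dpc. Replicate 1 of 15.5 dpc was the highest sample and replicate 2 the lowest, the reverse of *Egfr* and *Tgfa*. The log2 fold change was -0.19 (SE 0.19, edgeR adjusted p = 0.461), with limits of -0.57 and 0.18 at 2 standard errors.

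*Btc* (ENSMUSG00000082361; chr5:91357261-91402994, minus strand) encodes betacellulin, a further ligand of Egfr and Erbb4. It had 26.4, 42.0 and 34.5 normalised counts at 13.5 dpc and 33.2, 42.9 and 25.2 at 15.5 dpc. The ranges of the stages nearly coincided. The log2 fold change was -0.01 (SE 0.27, edgeR adjusted p = 0.982), and limits of -0.54 and 0.52 at 2 standard errors leave differences of that size unresolved.

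*Nrg1* (ENSMUSG00000062991; chr8:31818028-31918203, minus strand), which encodes neuregulin 1, had 21.0, 29.2 and 30.2 normalised counts at 13.5 dpc. At 15.5 dpc it had 6.92, 18.4 and 20.1. All 15.5 dpc samples were below the 13.5 dpc ones, but 15.5 dpc replicate 3 lay close to 13.5 dpc replicate 1. The log2 fold change was -0.79 (SE 0.35), and it did not pass the threshold (edgeR adjusted p = 0.141). The 14 alternatives that tested it gave log2 fold changes of -1.01 to -0.49 and adjusted p-values of 0.0895 to 0.334. The *Nrg1* model of the count table has 9 exons with 2103 bases, which cover 20.3% of the exon bases that GENCODE M21 gives this gene on the same genome. Reads from the remaining exons were not counted on this gene, so the *Nrg1* values stand for part of its transcripts.

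*Areg* (ENSMUSG00000029378; chr5:91139615-91148432, plus strand), which encodes amphiregulin, had raw counts of 1, 1 and 1 at 13.5 dpc and 0, 1 and 0 at 15.5 dpc. These are below 3 counts in each library, and no fold is given.

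Per length, *Tgfa* and *Hbegf* were the leading ligands at 13.5 dpc, with 3.80 ± 0.398 and 3.21 ± 0.245 FPKM (SD, n = 3). Their ranges overlapped. Below them came *Nrg1* at 1.01 ± 0.190, *Btc* at 0.944 ± 0.214 and *Egf* at 0.747 ± 0.0883 FPKM, whose ranges also overlapped. At 15.5 dpc the order was *Tgfa* (3.10 ± 1.18), *Hbegf* (2.83 ± 0.623), *Egf* (2.31 ± 0.216), *Btc* (0.930 ± 0.245) and *Nrg1* (0.570 ± 0.270). The ranges of *Tgfa*, *Hbegf* and *Egf* overlapped at that stage, and so did those of *Btc* and *Nrg1*. *Egf* lay above *Btc* and *Nrg1* in every 15.5 dpc sample. Its share of the summed ligand FPKM was 7.66% ± 1.07 at 13.5 dpc and 23.8% ± 2.86 at 15.5 dpc, while *Tgfa* held 39.0% ± 4.65 and 31.1% ± 9.21. With transcripts of all kinds included, the gene models of the table hold all GENCODE exon bases of the 4 receptors, but 42.1% of those of *Egf*, 65.2% of *Tgfa*, 63.6% of *Btc* and 49.1% of *Hbegf*. Comparisons of level between ligands therefore carry this limit, whereas comparisons of 1 gene between stages use the same exons throughout.

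**Figure D3:**
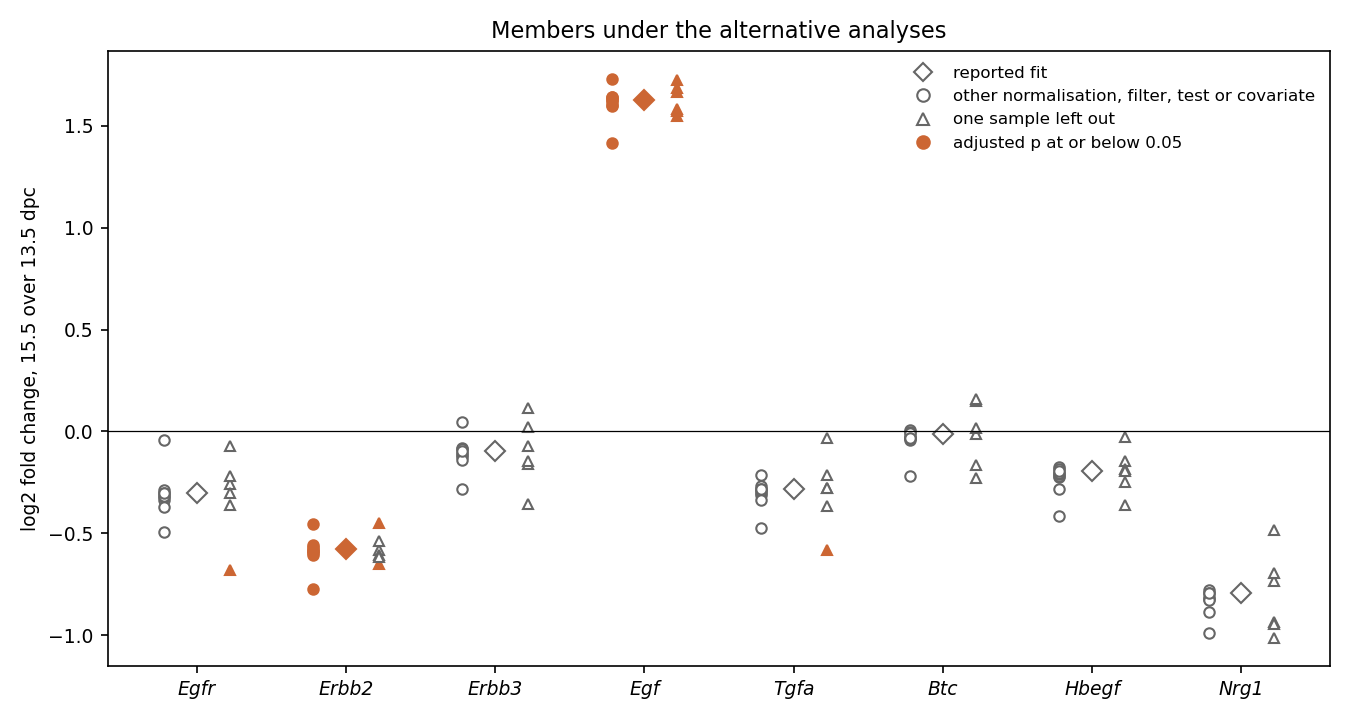
Log2 fold change of 15.5 over 13.5 dpc (vertical axis) of the 8 members tested in the reported fit (diamond), in the 9 fits with other scaling, filter, test or covariate (circles) and in the 6 fits without 1 sample (triangles), filled where the adjusted p is at or below 0.05. *Egf* (1.42 to 1.73) is filled throughout, *Erbb2* in all but 4 triangles, and *Egfr* and *Tgfa* in 1 triangle each; *Nrg1* has 8 circles.

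Sequence upstream of the start is shown for the 2 members that were called, since they moved in opposite directions. The windows are from RefSeq on GRCm38.p6, which has the coordinates of mm10, and run 5′ to 3′ on the strand of the gene from 250 to 21 bases before a start site. Capitals mark CpG dinucleotides. RefSeq gives *Egf* a start at the end of its locus and another inside it. The 3 windows are *Egf* at the outer start (chr3:129755343-129755572, minus strand), *Egf* at the inner start (chr3:129725107-129725336, minus strand) and *Erbb2* (chr11:98412234-98412463, plus strand).
Egf, outer start: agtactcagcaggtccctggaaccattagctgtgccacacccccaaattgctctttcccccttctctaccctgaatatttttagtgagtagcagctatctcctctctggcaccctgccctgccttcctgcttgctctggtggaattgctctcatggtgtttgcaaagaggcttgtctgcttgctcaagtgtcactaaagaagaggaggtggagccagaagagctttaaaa
Egf, inner start: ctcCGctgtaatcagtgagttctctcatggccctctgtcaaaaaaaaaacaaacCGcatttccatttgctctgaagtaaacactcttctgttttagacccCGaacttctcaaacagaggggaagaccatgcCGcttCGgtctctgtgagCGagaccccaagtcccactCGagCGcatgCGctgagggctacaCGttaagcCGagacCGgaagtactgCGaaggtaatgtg
Erbb2: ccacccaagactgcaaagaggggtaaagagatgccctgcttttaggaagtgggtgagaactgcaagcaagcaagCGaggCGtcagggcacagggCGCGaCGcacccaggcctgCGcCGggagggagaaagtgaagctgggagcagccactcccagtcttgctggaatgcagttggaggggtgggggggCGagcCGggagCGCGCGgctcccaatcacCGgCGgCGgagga

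The outer *Egf* window held 0 CpG dinucleotides at a GC content of 50%. The inner *Egf* window held 13 at 50.9%, and 126 of its 230 bases lie in an *Egf* exon of the count table. The *Erbb2* window held 15 at 65.2%. Over 32851 RefSeq windows of the same length the medians were 5 CpG dinucleotides and 51.7% GC. Motifs, spelled out here, were searched on both strands, and matches are descriptions of letters, not of bound sites. CANNTG, the E-box, had 1 match in each of the 3 windows and was found in 63.5% of all windows. CCAAT had 1 match in the *Erbb2* window, which did not overlap its E-box, and was found in 32.2% of all windows. The letters TATAAA (11.8% of all windows), GGGCGG (29.8%), TGGGAA (20%) and TGANTCA (6.34%) were not found in the 3 windows. Counts per gene do not separate the starts of *Egf*, so which of them carried the rise cannot be told apart.

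Among all 10 members, 7 had a RefSeq window, and the others were *Erbb3*, *Hbegf* and *Nrg1*. *Tgfa* held 17 CpG dinucleotides, *Areg* 13, *Egfr* 10, *Erbb4* 9 and *Btc* 3.

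The spread at 15.5 dpc was wider than at 13.5 dpc for 7 of the 8 members tested. The coefficient of variation of *Egfr* was 7.24% at 13.5 dpc and 41.9% at 15.5 dpc, that of *Tgfa* 10.5% and 38.3%, and that of *Erbb3* 13.6% and 33.0%. For *Egf* it went the other way, from 11.8% to 9.35%. In *Egfr*, *Erbb2*, *Erbb3* and *Tgfa* the 15.5 dpc samples had 1 order, with replicate 2 highest, replicate 3 between and replicate 1 lowest. Libraries of both stages also differed in a trend with gene length. Across genes, the log2 difference of a pair of 15.5 dpc libraries had a Spearman correlation with exon length of -0.59 (replicates 1 and 2), -0.49 (1 and 3) and 0.53 (2 and 3). At 13.5 dpc these values were -0.03, -0.33 and -0.31 in the same order. *Egfr* has the longest exons of the members tested, with 11326 bases. With a trend of length removed from each library, the log2 fold change was -0.04 for *Egfr* and 0.05 for *Erbb3*, and *Egf* and *Erbb2* were still called. The part of this trend in the members' spread was not tested.

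Markers of cell types in the whole pancreata also differed between the stages. In bulk samples, fewer cells of a type and less RNA per cell cannot be told apart. All 7 acinar markers were called higher at 15.5 dpc, and their summed normalised counts were 73518 to 87465 at 13.5 dpc and 409035 to 951419 at 15.5 dpc. Of the 7 epithelial markers 4 were called higher, with sums of 22726 to 23986 and then 31645 to 42051. *Egf* and the acinar sum were both higher in every 15.5 dpc sample. In 15.5 dpc replicates 1, 2 and 3 *Egf* was at 131, 131 and 154, and the acinar sum at 951419, 409035 and 591441. *Ctrb1* alone held 708798, 275542 and 385285 of these sums, so their spread is largely that of 1 gene. The relation of *Egf* to the acinar markers was not tested. Of 8 mesenchymal markers 2 were called higher and 2 lower, and their sums overlapped (109618 to 125867 and 79318 to 124143). These sums are held mostly by the collagen genes *Col1a1*, *Col1a2* and *Col3a1*, which were not called.

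Of 6 glial and neural crest markers, whose cells are known to use *Erbb3*, 5 were tested and 1 (*Sox10*) was called lower, with sums of 545 to 571 and 447 to 494. Of 6 endothelial markers 0 were called by edgeR, 0 had an unadjusted p under 0.05 and 0 were called by DESeq2. Of 8 endocrine markers 1 rose and 2 fell, and of 6 neuronal markers 1 rose and 2 fell. Of 5 mesothelial markers 1 rose and 1 fell, of 6 leukocyte markers 1 fell, and of 6 proliferation markers 1 rose. Each of these markers had counts in at least 1 sample. The part of these cell types in the members' values was not tested.

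**Figure D4:**
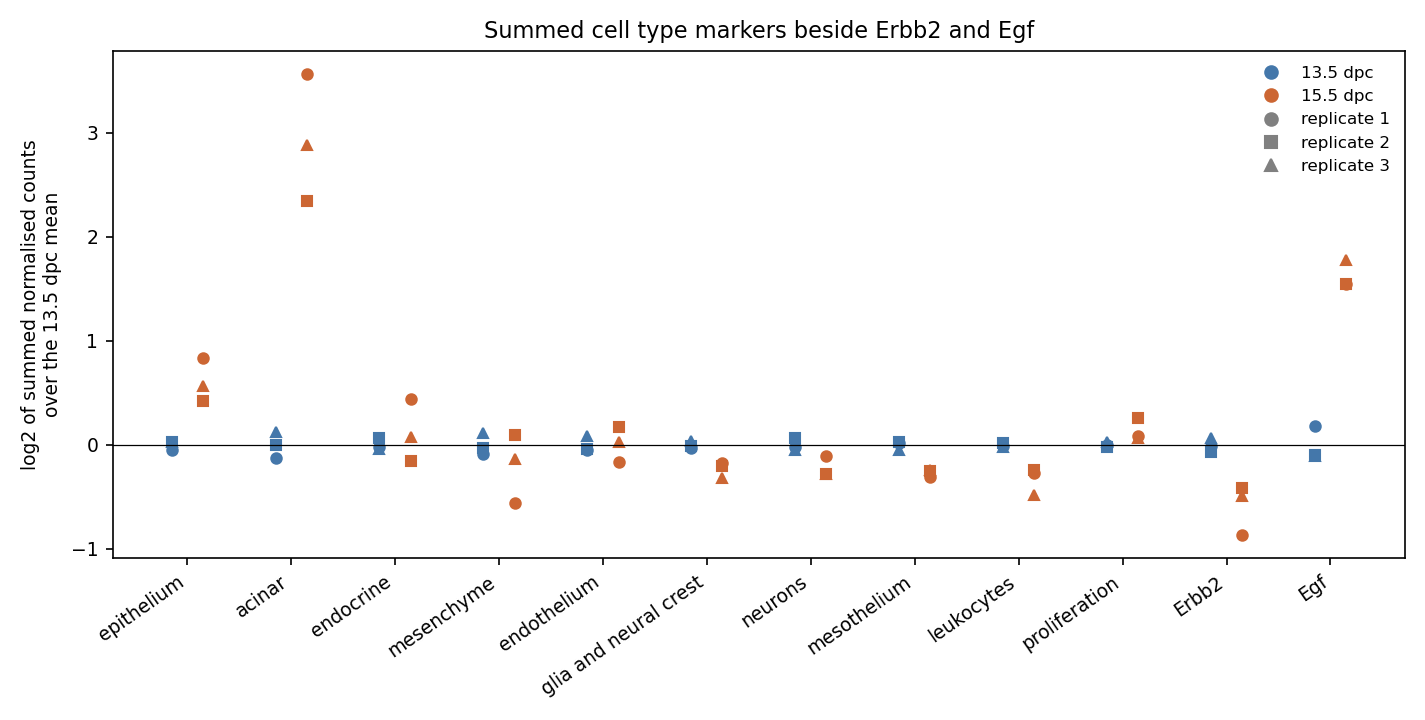
Log2 of the summed normalised counts of each marker list over its 13.5 dpc mean, for each sample (colour, stage in dpc; symbol, replicate), with *Erbb2* and *Egf* beside them. The acinar sums rise from at most 87465 to at least 409035, *Egf* rises in all 15.5 dpc samples, and *Erbb2* lies below its 13.5 dpc samples.

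The pathway around the members was described with 67 further genes in 6 lists, of which 62 were tested. Of these 5 were called higher and 9 lower at 15.5 dpc, which is 22.6% of those tested and near the 22.3% of all genes. Their median log2 fold change was -0.09, and that of all genes tested was -0.01. With scaling by library size alone, 2 were higher and 14 lower, where 26.2% of all genes were called and 27.7% of these were higher. Without any 1 of the 13.5 dpc samples 3 were called, where 7.83% to 8.88% of all genes were. Without 15.5 dpc replicate 3 there were 4 (9.05% of all genes), and without 15.5 dpc replicate 2 there were 33 (48% of all genes).

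Of the 5 other EGF-family ligands, *Nrg2*, which encodes neuregulin 2, was tested. It had 46.5, 45.4 and 48.8 normalised counts at 13.5 dpc and 26.3, 21.5 and 31.5 at 15.5 dpc. All later samples were lower, with a log2 fold change of -0.84 (SE 0.20, edgeR adjusted p = 0.0225). Its call was lost without any 1 of the 13.5 dpc samples, and over 15 alternatives the adjusted p ranged from 0.00979 to 0.0938. *Nrg3* had 17 raw counts over the 13.5 dpc samples and 4 over the 15.5 dpc samples, and *Nrg4* had 21 and 10. *Ereg* (3 and 1) and *Epgn* (2 and 2), which encode epiregulin and epigen, were at the limit of detection.

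Of the 7 genes of ligand shedding, 1 was called (14.3%, beside 22.3% of all genes tested). *Rhbdf1*, which encodes a rhomboid-like protein that helps the sheddase Adam17 to mature, rose from 1512 ± 103 to 2272 ± 111 normalised counts (SD, n = 3 each). Its log2 fold change was 0.59 (SE 0.09, edgeR adjusted p = 0.00561), and it was called in all 15 alternatives, with adjusted p-values up to 0.0475. The sheddases themselves were not called in the reported fit. *Adam17*, the main sheddase of Tgfa, Hbegf and Areg, had a log2 fold change of 0.03 (adjusted p = 0.896), which turned to -0.18 with scaling by library size alone. With the length trend removed it was called (0.23, adjusted p = 0.0264), in a range of adjusted p-values up to 0.995. *Adam10*, a sheddase of Egf and Btc, had one of 0.28 (adjusted p = 0.141), and was called without 15.5 dpc replicate 1 (0.38, edgeR adjusted p = 0.012) and with the length trend removed (0.38, adjusted p = 0.00723), in a range of adjusted p-values up to 0.739.

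Of the 12 genes tested in the list of receptor dampening 1 rose and 2 fell, which is 25% beside 22.3% of all genes tested. The list was set by name, and not every product on it need dampen the receptors. What the products of *Lrig2* and *Lrig3* do to them was not tested. The 3 called were all from the same family of transmembrane Lrig proteins. *Lrig1*, whose product promotes ErbB degradation, rose from 541 ± 17.5 to 861 ± 138 normalised counts (log2 fold change 0.67, edgeR adjusted p = 0.0128). With scaling by library size alone it was 0.47 and not called (adjusted p = 0.0836, in a range of 0.000194 to 0.0836 over 15 alternatives). *Lrig2* fell from 394 ± 16.1 to 268 ± 21.0 (log2 fold change -0.56, adjusted p = 0.0109), and *Lrig3* from 359 ± 20.8 to 225 ± 56.7 (-0.67, adjusted p = 0.0354). *Errfi1*, an inducible inhibitor of the Egfr kinase, had a log2 fold change of -0.17 (adjusted p = 0.23) and was called in none of its 15 alternatives by edgeR or DESeq2.

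Of 16 adaptor and MAP kinase genes 2 were called (12.5%, beside 22.3% of all genes tested), and both fell. *Gab1*, a docking protein of activated receptors, had a log2 fold change of -0.46 (edgeR adjusted p = 0.0201), and *Nras*, a small GTPase, one of -0.33 (adjusted p = 0.0276). The call of *Nras* was lost with the replicate block (edgeR adjusted p = 0.085). Of 9 PI3 kinase genes 1 was called (11.1%) and rose, the kinase gene *Akt1* (log2 fold change 0.30, edgeR adjusted p = 0.0474). That call was lost in 9 of 15 alternatives, in which the log2 fold change was as low as 0.09. The medians of these lists were -0.05 and -0.01.

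The list of immediate response and feedback genes held 2 that rose and 4 that fell among 17 tested, or 35.3% beside 22.3% of all genes tested, with a median of -0.21. The ETS factor genes *Etv4* and *Etv5*, known as targets of receptor tyrosine kinase signalling, fell by 0.68 and 0.67 on the log2 scale (edgeR adjusted p = 0.0159 and 0.00482). *Etv4* went from 144 ± 11 to 90.2 ± 10.6 normalised counts and *Etv5* from 361 ± 12.1 to 226 ± 15.0. *Etv5* shares 24.5% of its 50-base windows with other transcripts, so its counts are less certain. *Phlda1*, which encodes a growth factor-induced protein, rose (log2 fold change 0.64, adjusted p = 0.0197), as did *Myc* (0.38, adjusted p = 0.0433), whose call was lost in 8 of 15 alternatives. The other 2 that fell were *Jun* and *Spred1*, named here after their values were seen. *Jun*, an AP-1 subunit gene, had a log2 fold change of -0.60 (edgeR adjusted p = 0.00342), and *Spred1*, which encodes an inhibitor of Ras signalling, one of -0.57 (adjusted p = 0.0233). Of the 12 genes named by rule from the pathway lists as called, *Rhbdf1* and *Etv5* kept their call whichever single sample was left out, and the others lost it without any 1 of the 13.5 dpc samples.

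**Figure D5:**
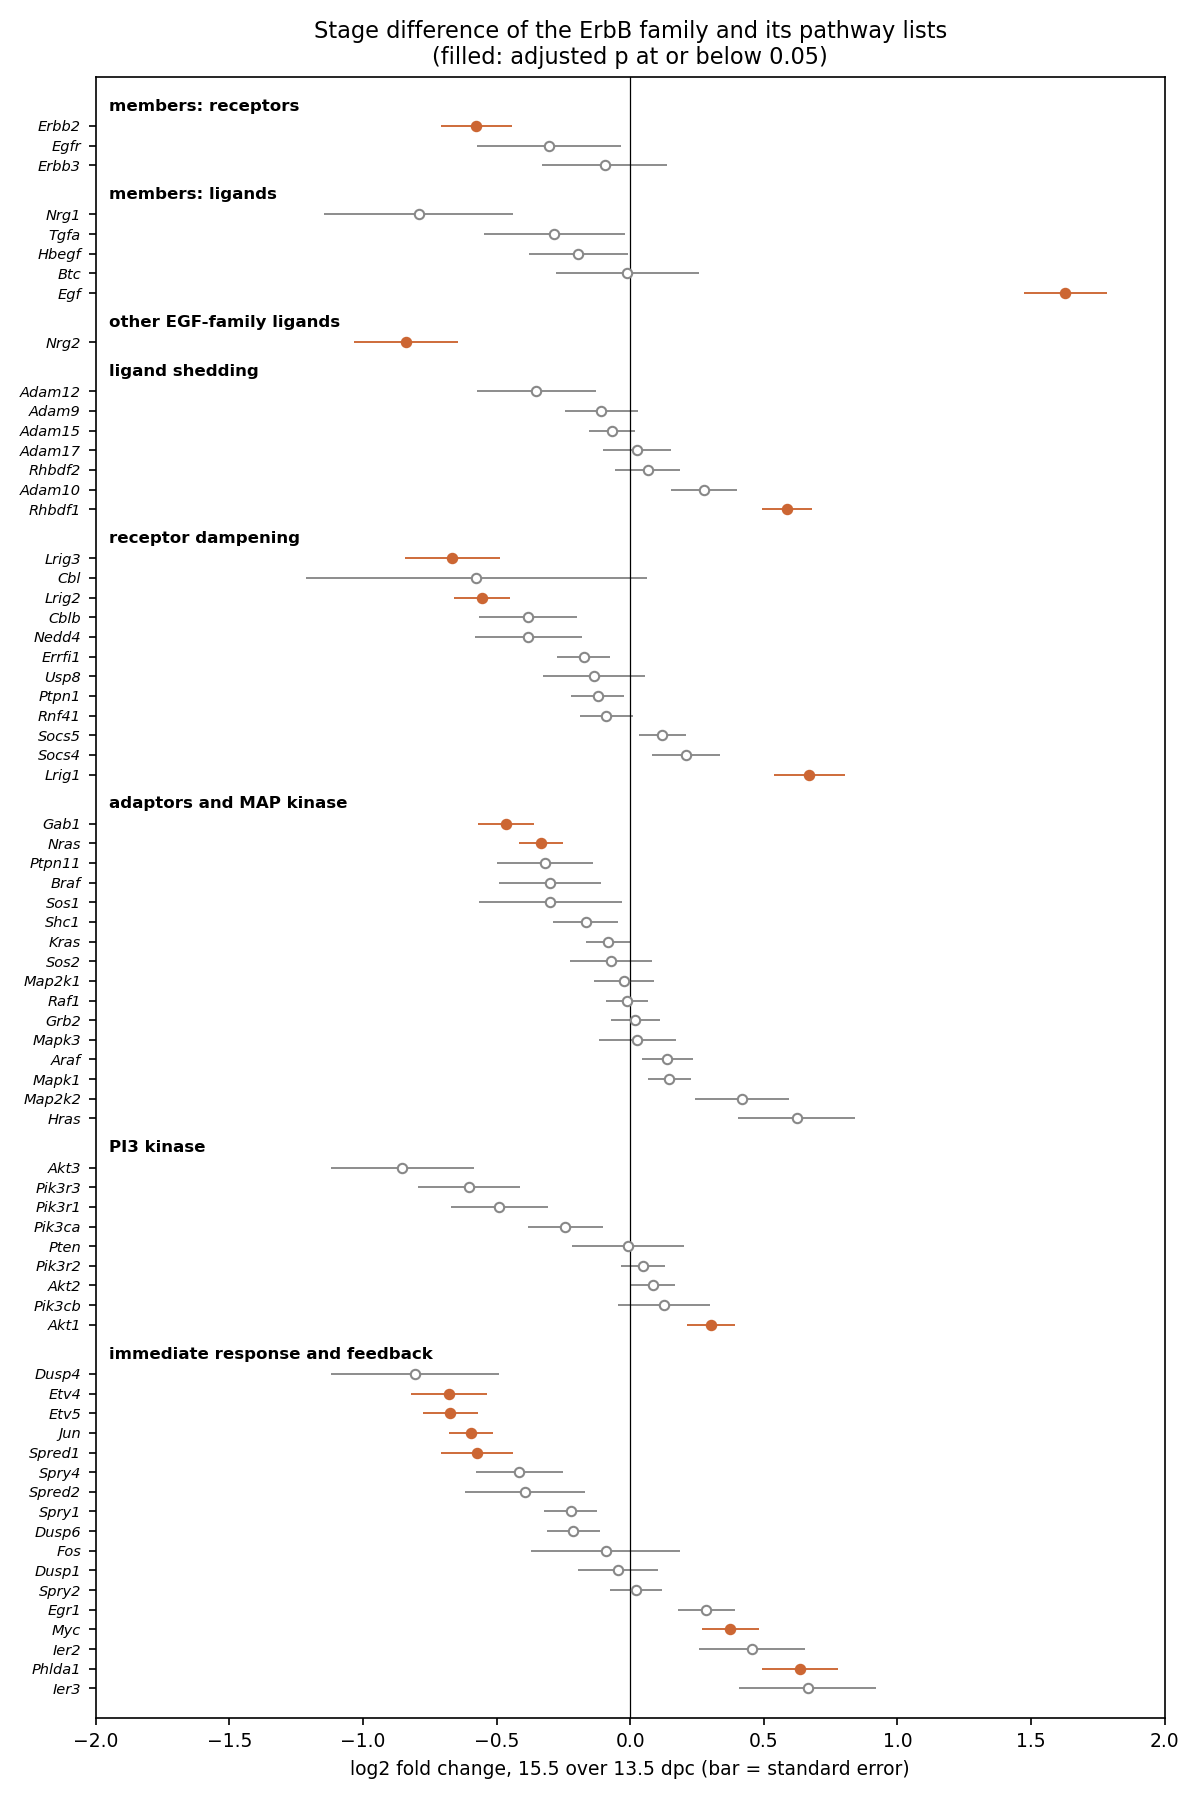
Log2 fold change of 15.5 over 13.5 dpc (horizontal axis, bar = standard error) of the 8 members tested and the 62 pathway genes tested, by list, with genes at an adjusted p at or below 0.05 filled. *Egf* has the highest value (1.63), and the 2 called members and 14 called pathway genes lie on both sides of 0.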

How the data were processed

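RNA of 6 pools of wt pancreata, 3 per stage, was analysed. The authors used GSNAP and mm10 for alignment, then counted unique alignments on Ensembl genes with featureCounts 1.4.6 and deposited raw counts. Whether counting used the strand is not given in the sources used here. Of 37224 genes, 35449 matched a symbol. The members share at most 0.173% of exon bases with a gene on the opposite strand and at most 0.151% of their 50-base windows with other transcripts.

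Counts were tested in R 4.3.3 with edgeR 4.0.16 (filterByExpr, TMM, glmQLFit, glmQLFTest, no covariates). Genes that passed the filter carried 99.9% of every library's reads (rounded). A standard error is the absolute log2 fold change over the square root of F. Alternatives were library size, RLE and upper-quartile scaling, DESeq2 1.42.0, no filter or at least 10 counts in every sample, a replicate block, genes above 1% of counts taken out, a lowess trend with gene length removed by an offset in the same edgeR test (span 0.5) and each sample left out. Genes named are the members, the other ligands, up to 2 risen and 2 fallen called genes of each pathway list whose stages do not overlap, and *Errfi1*, *Lrig1*, *Adam10* and *Adam17*. *Jun*, *Spred1* and the markers *Sox10*, *Ctrb1*, *Col1a1*, *Col1a2* and *Col3a1* were named after their values were seen. Members and lists were chosen with earlier results of these data known. On simulated data with 200 changed genes among 15567 tested, edgeR recovered 195 with 9 false calls. The changes were of 2 or 1 on the log2 scale, of which 100 and 95 were recovered. All genes had the same dispersion, and no length trend was simulated. Apart from *Egf*, the members and pathway genes called here changed by less than 1, and recovery at such sizes was not tested. Figures were drawn with Python 3.11.15.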

Additional observations from a re-analysis of the deposited data

How the results depend on the processing

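The number of members called was 2 in the 9 analyses with other scaling, filter, test or covariate, and *Egf* and *Erbb2* were the members called in each. When single samples were left out it ranged from 1 to 4, as *Erbb2* lost its call in 4 of these fits and *Egfr* and *Tgfa* gained one without 15.5 dpc replicate 2. Members past the study's thresholds numbered 1, or 2 with library size alone. The 14 pathway calls became 26 with the length trend removed, where 32.8% of all genes were called against 22.3%, and 3 to 33 when single samples were left out, where 7.83% to 48% were. The sign of *Erbb3* turned with the length trend removed (0.046) and over left-out samples (-0.36 to 0.12). That of *Btc* turned with RLE factors (0.0051) and over left-out samples (-0.23 to 0.16). That of *Adam17* turned with library size (-0.18), upper quartile (-0.0051) and over left-out samples (-0.069 to 0.14). The cause was not tested. Of 119 comparisons of the members, 106 kept direction and call, and of 225 of the other named genes 168 did.

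Same-numbered samples did not deviate together (correlations of 0.22, -0.22 and 0.04), so the number names samples and does not pair them. With the replicate block 2 members and 12 pathway genes were called, and 2676 genes were called in all, against 3467. Among the named genes *Nrg2*, *Nras*, *Myc* and *Akt1* lost their calls (edgeR adjusted p = 0.0505, 0.085, 0.0948 and 0.121).

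Depth limits *Erbb4*, at 1 to 6 counts per library, and *Areg*, at 0 to 1. Each stage has 3 samples, and p-values cover the spread between these pools.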
